A study of Mus musculus with 6 samples.

Results

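The 4 mouse Notch receptor genes (Notch1, Notch2, Notch3 and Notch4) and the 5 genes of their canonical ligands (Dll1, Dll3, Dll4, Jag1 and Jag2) were examined for accessible chromatin in a T-cell leukemia line. Members were the peaks of an ATAC-Seq list that met the annotated gene body or the 50 kb to either side of it, referred to as the window of the gene. They numbered 63 of the 32527 peaks in all. ATAC-Seq maps open chromatin by the insertion of a transposase, and a peak is an interval in which insertions were enriched.

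The list came from Beko cells, a mouse pre-T cell leukemia line in which Notch signalling is constitutively active according to the study. For 24 h the cells received DAPT, which blocks γ-secretase (GSI, 3 libraries), or the solvent DMSO alone (3 libraries). The labels give the DAPT dose as 10 mg/ml, whereas the study's methods give the same figure in µg/ml. All 6 libraries came from 1 cell line with no genotype that differs between them. Peaks of both treatments stood in 1 merged list, and a peak was kept when it occurred in 3 of the 6 libraries. The list held positions only, so GSI and DMSO could not be compared, no value had a replicate error, and the list gave no depth behind a peak. A peak shows that a site was accessible in enough libraries, not how accessible it was, and a missing peak shows only that no call passed the filter.

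Notch receptors are single-pass proteins that are bound by Delta-like or Jagged ligands on a neighbouring cell. Binding allows ADAM proteases and then γ-secretase to cut the receptor, and the released intracellular domain enters the nucleus and joins the DNA-binding protein RBPJ and a Mastermind co-activator at target genes. In the thymus, Notch1 on the progenitor and Dll4 on the epithelium drive commitment to the T-cell lineage, and activating changes of Notch1 are common in T-cell leukemia. In some mouse leukemias the gene is transcribed from starts inside the gene body, which yields a receptor without most of its extracellular part.

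Sequence was read from the mm9 assembly and is printed in the direction of transcription. The upstream stretches begin 250 bp before the RefSeq start of each gene, which was found in mm9 by an exact match of the RefSeq promoter (table build GRCm38.p6). All 10 RefSeq promoters of the 9 genes matched once. The first set, shown because peaks covered these bases in whole or in part, comprised 3 receptors and 1 ligand. Capitals mark the letters GGGCGG on either strand, which SP-family factors bind.
Notch1 upstream, chr2:26359343-26359592, minus strand: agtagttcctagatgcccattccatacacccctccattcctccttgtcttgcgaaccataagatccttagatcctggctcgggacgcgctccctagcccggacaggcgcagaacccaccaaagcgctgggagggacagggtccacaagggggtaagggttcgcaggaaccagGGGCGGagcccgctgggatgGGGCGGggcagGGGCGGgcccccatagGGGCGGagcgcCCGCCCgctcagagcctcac
Notch2 upstream, chr3:97817211-97817460, plus strand: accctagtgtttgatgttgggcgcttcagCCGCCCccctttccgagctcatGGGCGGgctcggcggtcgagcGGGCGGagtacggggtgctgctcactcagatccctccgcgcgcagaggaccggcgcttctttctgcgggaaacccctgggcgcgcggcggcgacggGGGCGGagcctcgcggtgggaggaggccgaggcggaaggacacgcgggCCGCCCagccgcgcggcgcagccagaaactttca
Notch3 upstream, chr17:32303836-32304085, minus strand: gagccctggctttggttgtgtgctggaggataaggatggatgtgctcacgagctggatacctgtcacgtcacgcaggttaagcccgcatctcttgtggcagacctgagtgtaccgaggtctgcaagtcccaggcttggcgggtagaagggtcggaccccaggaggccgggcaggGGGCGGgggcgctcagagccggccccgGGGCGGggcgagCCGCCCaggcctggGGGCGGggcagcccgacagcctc
Jag2 upstream, chr12:114167707-114167956, minus strand: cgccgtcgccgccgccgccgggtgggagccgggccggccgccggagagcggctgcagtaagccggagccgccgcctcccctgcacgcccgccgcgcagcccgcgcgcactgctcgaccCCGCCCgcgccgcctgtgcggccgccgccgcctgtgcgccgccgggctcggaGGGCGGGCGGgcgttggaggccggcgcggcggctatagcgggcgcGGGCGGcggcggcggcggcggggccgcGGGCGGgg
The second set, shown for contrast, held 1 receptor and 2 ligands whose upstream bases met no peak. Bases of an annotated untranslated region were left out, which shortened the stretches of Notch4 and Jag1 to 223 and 126 bp.
Notch4 upstream, chr17:34700990-34701212, plus strand: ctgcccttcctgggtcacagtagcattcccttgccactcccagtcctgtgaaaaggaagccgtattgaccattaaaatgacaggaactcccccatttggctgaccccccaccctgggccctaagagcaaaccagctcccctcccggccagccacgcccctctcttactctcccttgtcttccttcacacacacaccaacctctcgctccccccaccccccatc
Dll4 upstream, chr2:119151270-119151519, plus strand: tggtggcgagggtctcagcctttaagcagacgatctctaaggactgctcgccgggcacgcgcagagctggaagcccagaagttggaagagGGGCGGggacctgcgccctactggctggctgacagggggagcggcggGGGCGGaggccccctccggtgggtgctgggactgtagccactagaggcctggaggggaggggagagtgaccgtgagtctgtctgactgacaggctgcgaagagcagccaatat
Jag1 upstream, chr2:136942381-136942506, minus strand: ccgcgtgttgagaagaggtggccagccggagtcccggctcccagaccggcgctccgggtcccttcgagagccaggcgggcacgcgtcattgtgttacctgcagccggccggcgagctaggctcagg
Peaks covered all 250 upstream bases of Notch1 and of Notch2, 162 bases of Notch3 and 126 bases of Jag2. GGGCGG occurred 5 times in the 250 bp of Notch1, Notch2 and Jag2 and 4 times in that of Notch3. It occurred 2 times in that of Dll4, 1 time in that of Dll3, and not in those of Notch4, Jag1 or either Dll1 start. The upstream stretches that met a peak thus held more of these letters than the stretches that met none. Over 32851 RefSeq upstream stretches of the same length, 32.7% held GGGCGG at least 1 time and 4.09% held it at least 4 times. TGGGAA, the core of the RBPJ motif, was found in none of the 10 stretches, and 21.6% of all RefSeq stretches held it. The related letters TGAGAA occurred 1 time, in that of Jag1. These letters were counted in this window only.

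The third set shows 200 bp stretches of peaks away from the main starts or beside them, chosen for the RBPJ core letters or, in 1 case, for an internal start of Notch1. Capitals mark TGGGAA and TGAGAA on either strand.
Notch1, upstream, chr2:26405904-26406103, minus strand: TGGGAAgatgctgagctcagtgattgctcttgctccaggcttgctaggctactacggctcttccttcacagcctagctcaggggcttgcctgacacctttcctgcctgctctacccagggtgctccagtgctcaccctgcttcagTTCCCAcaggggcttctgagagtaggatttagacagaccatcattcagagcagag
Notch1, between the outer and the main start, chr2:26369506-26369705, minus strand: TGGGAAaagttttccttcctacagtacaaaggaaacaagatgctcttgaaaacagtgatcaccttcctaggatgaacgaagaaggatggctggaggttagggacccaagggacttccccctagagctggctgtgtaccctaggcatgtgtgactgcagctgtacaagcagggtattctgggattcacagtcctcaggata
Notch1, around the internal start, chr2:26323033-26323232, minus strand: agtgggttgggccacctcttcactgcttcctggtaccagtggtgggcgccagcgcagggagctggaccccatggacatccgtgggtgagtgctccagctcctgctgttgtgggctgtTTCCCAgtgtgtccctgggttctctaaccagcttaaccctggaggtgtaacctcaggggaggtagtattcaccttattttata
Notch1, exon 25, chr2:26324104-26324303, minus strand: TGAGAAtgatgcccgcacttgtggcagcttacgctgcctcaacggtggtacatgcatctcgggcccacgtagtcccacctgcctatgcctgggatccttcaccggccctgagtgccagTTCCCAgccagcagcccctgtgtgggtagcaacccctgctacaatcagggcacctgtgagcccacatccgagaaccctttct
Notch3, intron 1, chr17:32301267-32301466, minus strand: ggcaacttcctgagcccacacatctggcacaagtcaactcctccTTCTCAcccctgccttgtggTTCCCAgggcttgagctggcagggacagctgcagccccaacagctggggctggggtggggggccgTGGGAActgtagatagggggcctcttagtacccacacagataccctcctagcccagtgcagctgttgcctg
Dll4, upstream, chr2:119150329-119150528, plus strand: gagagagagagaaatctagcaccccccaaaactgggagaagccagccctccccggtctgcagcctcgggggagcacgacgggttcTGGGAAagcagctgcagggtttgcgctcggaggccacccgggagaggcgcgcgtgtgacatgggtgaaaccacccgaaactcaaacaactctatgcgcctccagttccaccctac
The upstream Notch1 stretch held TGGGAA 2 times, and the Notch3 stretch held TGGGAA 2 times and TGAGAA 1 time. The other stretches held TGGGAA 1 time each, with 1 TGAGAA beside it in exon 25 of Notch1. The stretch around the internal start lay across the border of intron 26 and exon 26, and the Notch3 stretch lay wholly in intron 1.

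The receptors had 41 peaks in their windows and the ligands 22. Notch1 had 17 peaks, Notch3 and Notch4 had 10 each and Notch2 had 4. Among the ligands, Jag2 had 9 peaks, Dll3 had 6, Dll4 had 5, Dll1 had 2 and Jag1 had 0. Jag2 and Dll3 thus had more peaks than Notch2, and the ranges of the groups overlapped. The median was 10 for the receptors and 5 for the ligands, and over all 22380 coding genes it was 3 (quartiles 1 and 6). At least 1 peak was present in the window of 77.2% of coding genes, against all 4 receptors and 4 of the 5 ligands. With 4 and 5 genes, these shares are given as a description.

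**Figure D1:**
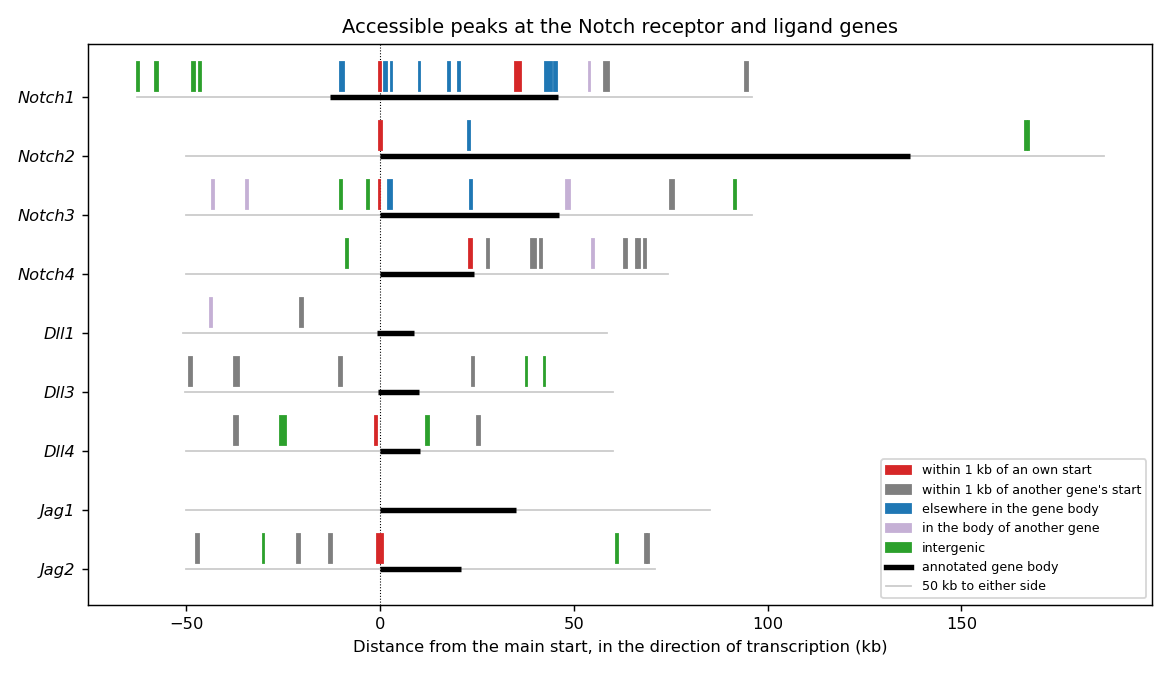
Each row is a gene, drawn by distance from its main start in kb along the direction of transcription, with the gene body as a thick line, the window as a thin line and each peak as a coloured bar. Peaks lie along Notch1 from upstream of the main start to the end of the gene, whereas the Jag1 window has 0 peaks and the 3 Delta-like genes have peaks only beside their bodies.

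Windows differed in length, since the receptor genes are longer. Per 100 kb of window, the receptors had 6.16 peaks (41 in 666 kb) and the ligands 3.75 (22 in 586 kb). The genes ranged from 10.7 peaks per 100 kb at Notch1, 8.05 at Notch4, 7.44 at Jag2 and 6.85 at Notch3 to 5.43 at Dll3, 4.54 at Dll4, 1.83 at Dll1, 1.69 at Notch2 and 0 at Jag1. The median coding gene had 2.37 peaks per 100 kb (quartiles 0.570 and 4.71). Leaving out Notch1 alone or Jag1 alone made the difference between the groups smaller but kept its order. Without Notch1 the receptors had 4.73 peaks per 100 kb, and without Jag1 the ligands had 4.88, so that only leaving out both turned the order. The median count per gene without these genes was 10.0 for the receptors and 5.50 for the ligands.

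Read against all coding genes, Notch1 lay in the upper tail, since 0.340% of coding genes had as many window peaks or more and 1.24% were as dense or denser. Notch3 and Notch4 each had a count that 7.59% of coding genes reached, and 11.0% reached that of Jag2. Dll3 and Dll4 stood at 29.0% and 37.1%, Notch2 at 46.1% and Dll1 at 66.5%. Jag1 shared its count of 0 with 22.8% of coding genes.

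**Figure D2:**
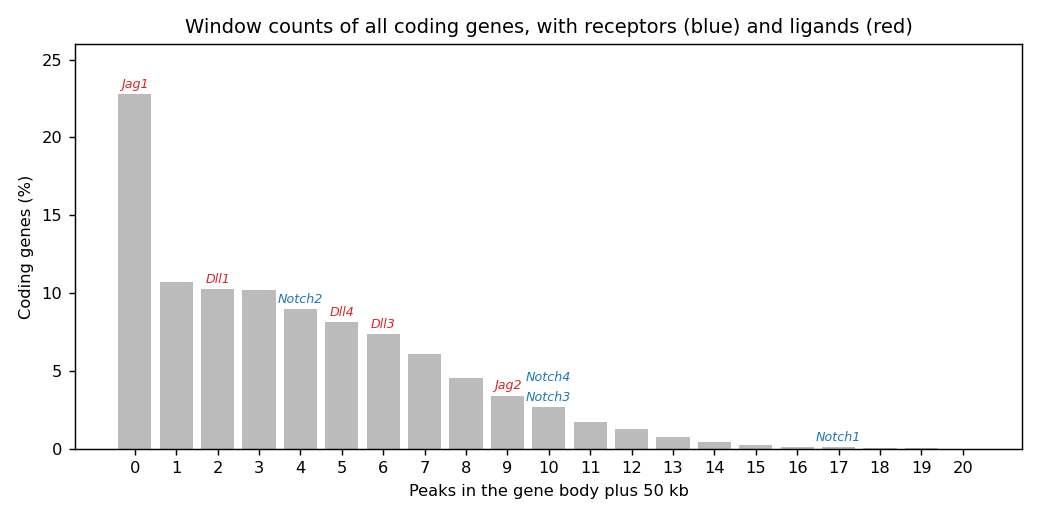
Grey bars give the percentage of the 22380 coding genes (vertical axis) with each number of window peaks (horizontal axis, drawn up to 20), and the names mark the counts of receptors in blue and ligands in red. Notch1 stands at 17 peaks, Notch3 and Notch4 at 10 and Jag2 at 9, while Jag1 stands in the bar of genes with 0.

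The receptors had 16 peaks in 266 kb of gene body, which is 6.02 per 100 kb, and the ligands had 1 in 86.4 kb, which is 1.16 per 100 kb. Beside the bodies the values were closer, with 25 peaks in 400 kb for the receptors (6.25 per 100 kb) and 21 peaks in 500 kb for the ligands (4.20 per 100 kb). Each of the 4 receptors had a peak in its body, as did 1 ligand, Jag2, and 53.9% of all coding genes. Of the 16 receptor body peaks 10 belonged to Notch1, and without it the receptors had 2.90 per 100 kb of body (6 peaks). Without Jag1 the ligands had 1.95 per 100 kb of body (1 peak), so that leaving out both brought the values closer.

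Peaks away from every annotated start of any gene, which here means farther than 1 kb, made up 26 of the 41 receptor peaks (63.4%) and 7 of the 22 ligand peaks (31.8%). Of all peaks in the list 64.6% lay away from starts and 35.4% within 1 kb of one. Pooled, the receptor peaks were therefore placed much as peaks in general, but the receptors differed from each other. Without Notch1 the receptor share was 54.2% (13 of 24). At Notch4, 7 of 10 peaks lay at starts of other genes and 1 at an own start. The ligand windows held a larger share of peaks at starts, mostly those of neighbours. Starts of other genes accounted for 12 of the 22 ligand peaks and 10 of the 41 receptor peaks. Peaks in the own body away from own starts numbered 11 in the receptors (8 in Notch1, 2 in Notch3 and 1 in Notch2) and 0 in the ligands. The windows held starts of 14 neighbouring coding genes around the receptors, 10 of them beside Notch4, and of 13 around the ligands. Which gene a peak at a neighbour's start acts on was not tested.

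**Figure D3:**
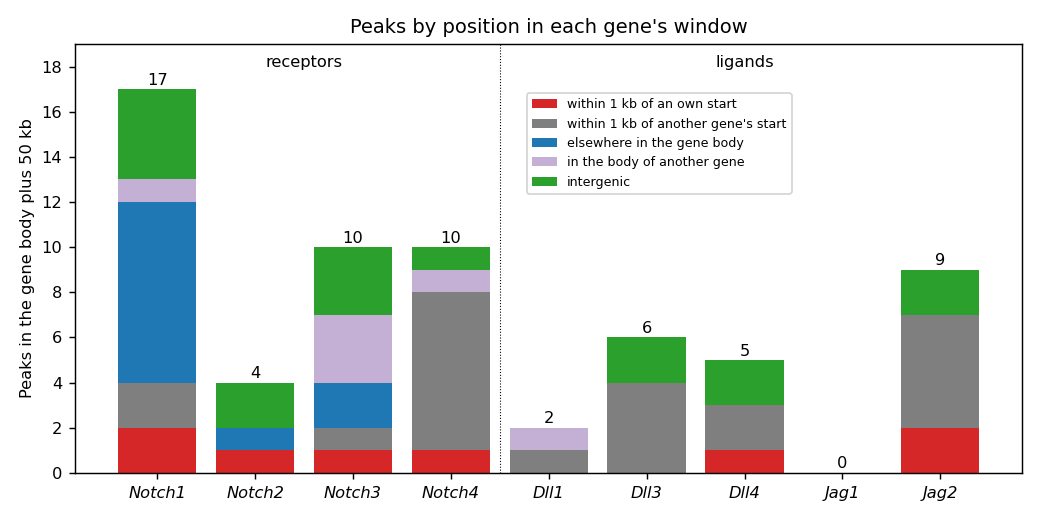
Stacked bars give the number of peaks in each window (vertical axis) for the 4 receptors and 5 ligands, coloured by position. Blue, for the gene body away from own starts, occurs in Notch1 (8), Notch3 (2) and Notch2 (1), and grey, for starts of other genes, fills most of the bar of Notch4 (7 of 10), Dll3 (4 of 6) and Jag2 (5 of 9).

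At their own starts, all 4 receptors and 2 of the 5 ligands had a peak within 1 kb, beside 46.9% of all coding genes. With coding transcripts alone the receptors numbered 3 and the ligands 2, beside 46.1% of coding genes. The main start, which is the coding start nearest to that of RefSeq, lay inside a peak in Notch1, Notch2 and Notch3. In Jag2 it lay 125 bp and in Dll4 792 bp from the nearest peak. The distance was 8334 bp for Notch4, 9846 bp for Dll3, 19885 bp for Dll1 and 402188 bp for Jag1. The genes fell into those with a main start inside a peak, those with a peak close beside it and those with none nearby.

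**Figure D4:**
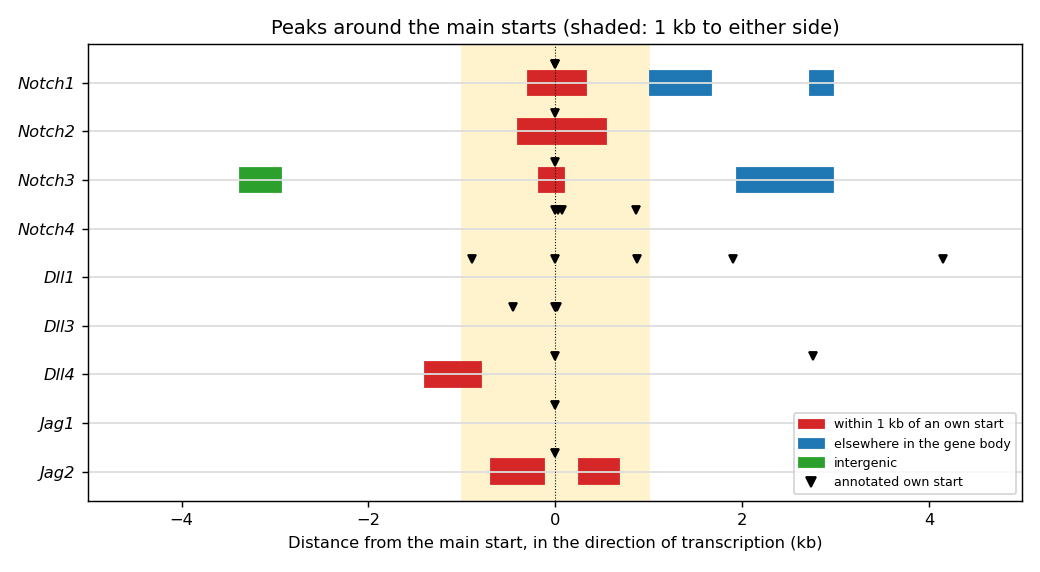
The 5 kb to either side of each main start, in kb along the direction of transcription, with peaks as bars, annotated own starts as triangles and the 1 kb limit shaded. Bars cover the starts of Notch1, Notch2 and Notch3, a pair of bars flanks the start of Jag2, the bar of Dll4 lies upstream, and Notch4, Dll1, Dll3 and Jag1 have no bar in view.

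Notch1, the receptor needed for commitment to the T-cell lineage, lies on the minus strand at chr2:26313423-26372183 (ENSMUSG00000026923.8). The annotation gives it 14 transcripts with 13 starts. The main start, at 26359342, belongs to a transcript of 34 exons, and the outermost start lies 12841 bp upstream of it. A peak of 623 bp (26359010-26359632) covered the main start, and the outermost coding starts had none within 1 kb, the nearest being 2390 bp away. Between the outer and the main start lay a peak of 1167 bp (26368600-26369766), 9258 bp upstream of the main start and in an intron of the longer transcripts. Neither TGGGAA nor TGAGAA occurred in the peak at the main start, and the upstream peak held TGGGAA 1 time.

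The first introns of Notch1 held 5 further peaks. The nearest, of 654 bp in intron 1 (26357675-26358328), lay 1014 bp from the main start and so just outside the 1 kb limit. In intron 2 stood 3 narrow peaks of 253, 393 and 405 bp, 2721, 10025 and 17638 bp downstream of the main start. A peak of 558 bp in intron 4 (26338765-26339322) held TGGGAA 2 times. The intron 2 peaks were all narrower than the median peak of the list, which was 551 bp, and held none of the RBPJ letters.

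Toward the 3′ end, the widest of all 63 peaks, of 1773 bp, lay over coding sequence of exon 34 (26315071-26316843), the exon that encodes the C-terminal end of the intracellular domain. A peak of 788 bp (26313801-26314588) followed in the 3′ untranslated part of the same exon, where the non-coding gene 0610009E02Rik also overlaps. They lay 42499 and 44754 bp downstream of the main start.

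Of the 13 Notch1 starts, 11 were internal, that is, more than 1 kb downstream of the outermost one, and 2 peaks lay within 1 kb of them. One of these peaks was that at the main start. The other, of 1453 bp (26322971-26324423), lay 34919 bp downstream of the main start. This peak covered exons 25 and 26 and intron 25 and reached into introns 24 and 26. It held TGGGAA 3 times, the most of any Notch1 peak. Of the 8 starts more than 1 kb downstream of the main start, 4 lay within 1 kb of this peak and 1, at 26323133 in intron 26, lay inside it. The other 3 of these 4 lay 657, 797 and 846 bp from the peak, so that all 4 starts shared 1 peak and are not independent cases. The remaining 4 starts lay 1084 to 1595 bp from the nearest peak. All 8 belonged to transcripts annotated as processed, with no coding sequence. When only starts of coding transcripts were taken, no peak lay within 1 kb of an internal start other than that at the main start. Whether RNA starts at this site cannot be read from a list of accessible positions.

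**Figure D5:**
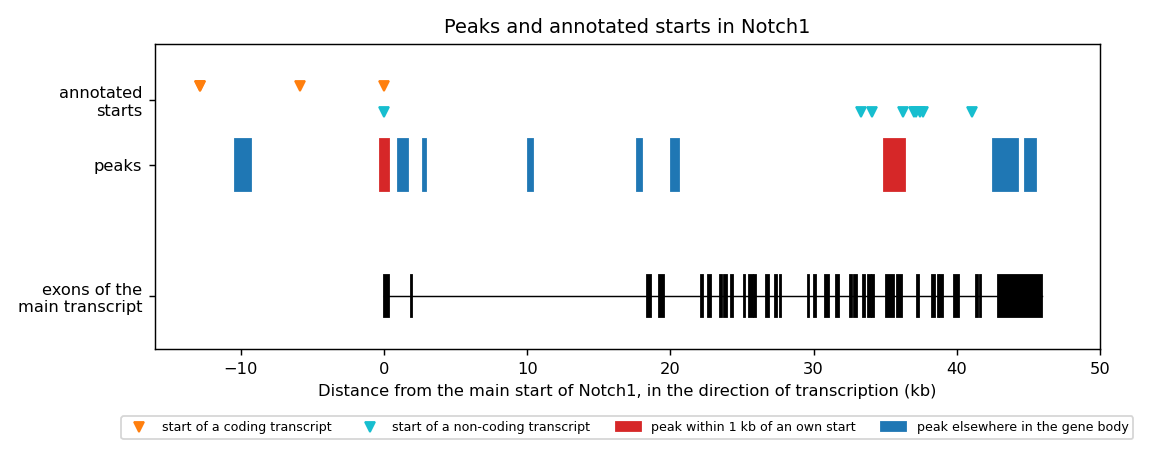
Notch1 by distance from its main start in kb along the direction of transcription, with annotated starts as triangles (coding in orange, non-coding in light blue), peaks as bars and the exons of the main transcript in black. The red bar among the later exons is the peak over exons 25 and 26, and of the 8 non-coding starts drawn above the later exons 1 lies inside it.

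Upstream of Notch1, 4 intergenic peaks stood in 2 pairs, 46214 and 47722 bp and 57278 and 62322 bp from the main start. Those of the nearer pair, 593 bp (26405556-26406148) and 857 bp (26407064-26407920) wide, held TGGGAA 2 times each, and those of the farther pair, 883 and 469 bp wide, did not hold it. Downstream, peaks lay at the starts of Inpp5e and Sec16a and in the body of 0610009E02Rik. The 4 upstream peaks were intergenic and had no annotated start within 1 kb, unlike the downstream pair at coding starts.

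Notch2, a receptor known for its role in marginal zone B cells, lies on the plus strand at chr3:97817461-97954290 (ENSMUSG00000027878.9) and is the longest of the 9 genes at 137 kb. A peak of 940 bp (97817060-97817999) covered its start and held GGGCGG 8 times and TGGGAA 1 time. The only other peak in the body, of 607 bp in intron 1 (97840096-97840702), lay 22635 bp downstream of the start and held TGGGAA 1 time. Peaks of 508 and 341 bp lay beyond the 3′ end, 29668 and 30368 bp from it. At 1.69 peaks per 100 kb, Notch2 was the sparsest receptor.

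Notch3, a receptor best known in vascular smooth muscle and often highly expressed in T-cell leukemia, lies on the minus strand at chr17:32257765-32303825 (ENSMUSG00000038146.7), with 1 annotated transcript. The peak at its start was narrow, at 268 bp (32303730-32303997), and held GGGCGG 4 times and TGGGAA 1 time. A peak of 1019 bp (32300858-32301876) began 1949 bp downstream, in intron 1 and over exon 2, and held TGGGAA 2 times and TGAGAA 1 time. The third body peak, of 399 bp, lay over exon 24 (32280166-32280564) and held neither.

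Outside the Notch3 body, intergenic peaks lay 2941 and 9751 bp upstream of the start. Downstream, the widest Notch3 window peak (1021 bp, 32254822-32255842) lay 1923 bp past the gene in the annotated gene Gm17276 and held TGGGAA 2 times. The peak with the most TGGGAA in this window, 3 times, lay at a start of the pseudogene Pdxk-ps (32228089-32228937). A stretch of it with 2 of these sites reads nearly as the reverse complement of a stretch of the Gm17276 peak. The TGGGAA counts of these peaks are therefore not independent. The methods report 1 alignment per read, so the 2 peak calls may not be independent either. Both are counted among the 10 peaks of the Notch3 window.

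Notch4, a receptor known from endothelium, lies on the plus strand at chr17:34701213-34725448 (ENSMUSG00000015468.8). Its main start had no peak nearby, and the nearest, of 487 bp (34692393-34692879), lay 8334 bp upstream. The peak counted at an own start, of 804 bp (34724037-34724840), lay over exons 29 and 30 at the 3′ end, 22824 bp from the main start and within 51 bp of a start of a non-coding transcript. The remaining window peaks lay downstream, and 7 of them stood at starts of Pbx2, Agpat1, Rnf5, Ppt2 and Prrt1, including the widest, of 1222 bp (34740273-34741494), at the starts of Agpat1 and Rnf5. The peak with the most TGGGAA in this window, 2 times, lay in the body of Ppt2 (34755849-34756366). Most peaks of the dense Notch4 window thus lay at starts of neighbouring genes, and no peak lay within 1 kb of the main start.

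Dll4, the ligand of thymic epithelium, lies on the plus strand at chr2:119151520-119161698 (ENSMUSG00000027314.6). Its body had 0 peaks. The peak nearest to its start, of 600 bp (119150129-119150728), ended 792 bp upstream, held TGGGAA 1 time and also lay at the start of the non-coding gene Gm14207. An intergenic peak of 1434 bp (119125720-119127153), the widest of the ligand windows, lay 24367 bp upstream, and another of 822 bp lay 1613 bp past the 3′ end. Peaks at the starts of Vps18 and Chac1 made up the rest, and that at Vps18 held TGGGAA 2 times, the most in this window.

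Dll1, a ligand needed for marginal zone B cells, lies at chr17:15504318-15513836 (ENSMUSG00000014773.7) and Dll3, a family member active in somite formation, at chr7:29076673-29087257 (ENSMUSG00000003436.10), both on the minus strand. Neither had a peak in its body or within 1 kb of an own start. Both Dll1 window peaks lay at Fam120b, the wider (837 bp, 15532825-15533661) at its start and the other in its body. Of the 6 Dll3 peaks, 4 lay at the starts of Eid2b, Timm50, Supt5h and Rps16, the widest being that of Supt5h (1282 bp, 29123305-29124586), and 2 were intergenic. TGGGAA occurred 2 times in the Fam120b start peak and 1 time each in 2 of the Dll3 peaks, that of Rps16 and an intergenic one (29044312-29044627).

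Jag1, the ligand whose loss causes Alagille syndrome, lies on the minus strand at chr2:136907192-136942380 (ENSMUSG00000027276.7). Its window held 0 peaks, and the nearest peak in the list (136539926-136540192) lay 367000 bp from the gene body. Jag2, its relative with roles in limb and palate, lies on the minus strand at chr12:114146801-114167706 (ENSMUSG00000002799.5). Peaks of 567 bp (114167831-114168397) and 429 bp (114167028-114167456) flanked the Jag2 start, 125 bp upstream and 250 bp downstream of it, the second over exon 2. Neither held TGGGAA.

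The other Jag2 peaks lay at starts of Gpr132 (2 peaks), Nudt14, Gm17274 and Btbd6 and at 2 intergenic sites, and the widest (815 bp, 114188276-114189090), at Gm17274, held TGGGAA 2 times. The pair of Jagged genes thus spanned the range of the ligands, from 0 to 9 peaks, with open chromatin on both sides of the Jag2 start and none called around that of Jag1.

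Across the 63 peaks, 34 (54.0%, Wilson 95% interval 41.8 to 65.7%, counting error only) held TGGGAA, beside 42.5% of all peaks. The interval includes the share of all peaks. It treats the member peaks as independent, which peaks of the same window may not be. The receptors had it in 24 of 41 peaks (58.5%) and the ligands in 10 of 22 (45.5%). The median width was 607 bp in the member peaks and 551 bp in the list, and a longer stretch holds any letters more often. In the central 200 bp, where width plays no part, the shares were 22.2% and 15.3%. TGAGAA alone went the other way, with 28.6% of the member peaks and 37.3% of all peaks, and 9.52% and 13.8% in the central 200 bp. With either of the pair counted, the shares were 63.5% of the member peaks and 62.5% of all peaks, which are close to each other. A head-to-head pair of these letters 15 to 17 bp apart, on which RBPJ complexes can form dimers, occurred in 0 of the 63 peaks and in 58 peaks of the list (0.178%).

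CpG-rich sequence (at least 50% GC and at least 0.6 times the CpG dinucleotides that base composition gives) made up 23 of the 63 peaks (36.5%), beside 26.1% of all peaks. It was found in 12 of 41 receptor peaks and 11 of 22 ligand peaks. GGGCGG occurred in 54.0% of the member peaks and 38.7% of all peaks. Of the member peaks 22 lay at starts of other genes and 8 at own starts. Away from starts lay 52.4% of the member peaks and 64.6% of all peaks. Whether the larger share at starts underlies the CpG and GGGCGG differences was not tested. CAGCTG, bound by E proteins, occurred in 50.8% and 42.7%, TGTGGT, bound by RUNX factors, in 42.9% and 41.4%, and GGAAGT, bound by ETS factors, in 38.1% and 43.3%. In the central 200 bp the shares were 33.3% and 23.4% for GGGCGG, 22.2% and 21.2% for CAGCTG, 14.3% and 19.9% for TGTGGT, and 20.6% and 20.3% for GGAAGT. The order of member peaks and all peaks turned for TGTGGT and GGAAGT. However, the shares were nearly equal for TGTGGT over whole peaks and for GGAAGT in the central 200 bp.

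Other genes of the pathway were counted at their own starts beside the 46.9% of all coding genes. All 10 genes for the cleavage of the receptor (the convertase Furin, the ADAM proteases and the γ-secretase subunits) had a peak, as did 8 of 9 genes of the nuclear complex, without Maml2. Of 13 genes for endocytosis and turnover 11 had one, without Neurl1a and Dtx3, and of 5 genes for glycosylation 4 had one, without the Fringe gene Lfng. Of the 5 HES and HEY effector genes 3 had one, without Hes5 and Hey2, and of the 3 non-canonical ligands only Dlk2, without Dlk1 and Dner. Beside these stand the 4 of 4 receptors and 2 of 5 canonical ligands, and none of these counts was tested. Notch4 was counted only through starts of non-coding transcripts, and with coding transcripts alone the receptors numbered 3.

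The T-cell label was checked in the same way. Of 15 T-cell genes 14 had a peak at an own start, without Cd3d. None of 7 B-cell genes or of the 6 annotated myeloid genes had one. Of 6 endothelial genes 1 (Pecam1) and of 6 thymic stroma genes 1 (Col1a1) had one, and the defining genes Cdh5 and Foxn1 had none.

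Near the limits of the rule, the outermost window peaks lay 49481 and 48362 bp from the Notch1 body, and the nearest peaks left out lay 53978 bp from Dll1, 54339 bp from Dll4 and 56082 bp from Notch4. At the 1 kb limit, the Dll4 peak at 792 bp was the farthest one inside, and those of Notch1 at 1014 and 1424 bp and of Notch3 at 1949 bp were the nearest ones outside.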

How the data were processed

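ATAC-Seq was performed on Beko cells in 3 GSI and 3 DMSO libraries, grouped by their labels. Per the methods and the submitters' processing notes, the authors trimmed reads (trimGalore), aligned them to mm9 (HISAT2 2.2.1), took out duplicates (Picard), called peaks in every library (MACS2) and joined replicates (MSPC). Peaks in fewer than 3 of 6 libraries and blacklisted regions were dropped. The deposited file used here is 1 list of peak positions in bp, made by the authors from both treatments together. The list carries no score or depth, and peaks of 1 treatment cannot be told from shared ones.

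Peaks were placed against GENCODE vM1 on NCBIM37 (the build of mm9), and coordinates are printed counted from 1. Python 3.11.15, numpy 2.4.6, pysam 0.24.0, scipy 1.17.1, statsmodels 0.14.6 and matplotlib 3.10.9 were used. The counts were checked on simulated data. Shares of all coding genes or of all peaks serve as the background, and nothing was tested.

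The members and gene lists were chosen with earlier results of these data known. Named peaks are those at own starts, the widest of each window, those in a gene body and those with the most TGGGAA. Other peaks named, such as those upstream of Notch1, Notch3 and Notch4, were chosen after their values were seen. Spi1, on the myeloid list, was not found by that symbol. Alternatives changed the window, the start limit, the transcripts, the peak width and the assignment of peaks. Some peaks upstream of Notch3 are counted but not described here.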

Additional observations from a re-analysis of the deposited data

How the results depend on the processing

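No test was run, so only values can move. Of 54 alternatives, 34 kept their value within 1.5 times for counts or within the counting interval for densities and shares, and 20 did not. Among those kept were receptor counts at own starts that fell from 4 to 3. A limit of 5 kb could not change 4 of 4 receptors. The tally is therefore no measure of robustness. The receptors' 41 and the ligands' 22 window peaks became 22 and 5 with 10 kb to either side, 16 and 1 in the gene body alone, and 19 and 4 when the nearest coding start had to be the gene's own. With 100 kb the ligands had 45 and the receptors 55, and with peaks of at least 500 bp the receptors had 26. Per 100 kb, the receptors fell from 6.16 to 3.90 with peaks of at least 500 bp and to 2.85 by nearest start, and the ligands from 3.75 to 1.16 in the body and 0.682 by nearest start. Receptors stood above ligands under each of these window settings. Leaving out Notch1 (4.73) or Jag1 (4.88), both chosen after seeing the data, turned the order only when applied together.

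Ligands with a peak at an own start numbered 1 within 500 bp and 0 with the start inside the peak, against 3 receptors inside one. Peaks at internal Notch1 starts numbered 7 within 5 kb and 1 with coding transcripts alone. Away from starts, the receptors had 15 peaks both at 5 kb and with wide peaks, and the ligands 2 with wide peaks. No paired analysis was possible because positions in the file used here were merged over the 6 libraries, which also means that no library could be left out. The list gives no depth per peak and library totals were not used here, so an uncalled site was not shown to be closed.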
